A study of Mus musculus with 8 samples.

Results

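The genes described here are 30 genes of the B cell receptor and of B cell identity: the receptor's signaling chains, B cell surface antigens, receptors for the survival factors BAFF and APRIL, the kinases and adaptors that carry the receptor signal, the transcription regulators of the lineage and leukocyte surface proteins that B cells share. Members were chosen by gene symbol, older and newer symbols included among the gene probes of the array. All 30 were found, on 46 probes, among 21597 gene symbols on the array. The arrays compared total pancreas RNA of 8 female NOD mice, 12 weeks of age, 1 mouse per array and labeled red with Cy5, with 1 pool of pancreas RNA from 8 age-matched NOD.B10 mice labeled green with Cy3. The NOD strain (NOD/LtJ) develops autoimmune diabetes. NOD.B10 (NOD.B10Sn-H2b/J) carries the H2b haplotype at the major histocompatibility locus on the NOD background and remains free of diabetes. The labels give no treatment. The same pool was used on every array and the dyes were never exchanged, so strain and dye cannot be told apart, and the spread between NOD.B10 mice was not measured. No member probe lies on chromosome 17, which carries H2.

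The B cell receptor is a surface immunoglobulin held by the paired chains Cd79a and Cd79b, whose cytoplasmic motifs are phosphorylated by Lyn, Blk and other Src family kinases and then bind Syk. Syk, with the adaptor Blnk, recruits Btk and Plcg2, while co-receptors such as Cr2 and Cd22 raise or dampen the signal. In NOD mice B cells enter the inflamed islets together with T cells and act there mainly as antigen-presenting cells, sometimes in follicle-like aggregates. Bulk pancreas is mostly acinar tissue, so B cell transcripts are a small share of this RNA, and more B cells cannot be told apart from more RNA per cell.

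All ratios below are log2 ratios of a NOD mouse over the pool, so that 1 is a 2-fold higher and -1 a 2-fold lower signal in the mouse. Probe positions are those of the files, on mouse build mm8; exons and introns were not looked up. Where a gene had several probes, the brightest tested probe stands for it. A gene was called when its mean differed at least 2-fold from the pool with a Benjamini-Hochberg adjusted p below 0.01 in limma. The fit covered all probes tested. Adjusted p values below are from this fit unless another setting, a mouse left out or a difference between slides is named. A signal is called well above background by the scanner software when it exceeds the local background by a set margin of its noise. Red signal was well above background on 21.6% to 35.3% of spots per array and green signal on 57.6% to 60.7%, so the NOD channel was the less sensitive of the pair. Where a signal did not rise above background the software put in a stand-in value, as in 42.9% to 54.0% of red spots, and the ratio was 0 where both dyes had one and in some spots where only red did. These values limit what could be seen for B cell genes: the red signal of the brightest probe was well above background on at least 4 arrays for 11 of the 30 genes, and on no array for 15. Over all genes tested, 51.6% reached at least 4 arrays.

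As a check of the label, 8 genes largely restricted to the B lineage were examined. *Cd79b* and *Ms4a1* had red signal well above background on 6 and 5 arrays. *Cd79a*, *Cd22*, *Cr2*, *Fcer2a*, *Blk* and *Pax5* had none on any array. The name of B cell genes therefore rests, in the NOD channel, on *Cd79b* and *Ms4a1*. The other 9 genes measured on at least 4 arrays (*Cd83*, *Lyn*, *Blnk*, *Plcg2*, *Pik3cd*, *Bcl6*, *Ciita*, *Ptprc* and *Cd52*) are also expressed by other leukocytes or tissue cells.

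Of the 30 genes, *Cd52* alone was called, and it was higher in NOD. Over all 18505 genes tested, 0.389% were called higher and 1.29% lower. With an adjusted p below 0.05 and no minimum size, 5 members were higher (16.7%; all genes, 6.97%), namely *Cd52*, *Ptprc*, *Ciita*, *Cd83* and *Pik3cd*, and *Bcl6* was lower (3.33%; all genes, 14.3%). With background-subtracted signals centered on the median of each array, 14 members were called higher and 1, *Bcl6*, lower, where 17.7% of all genes were called higher and 5.14% lower, and for 9 of the 14 the red signal stood well above background on fewer than 4 arrays. The remaining 5 were *Cd79b*, *Cd83*, *Ciita*, *Ptprc* and *Cd52*. With normexp and loess, 0 members were called (all genes, 0.227% higher and 0.0973% lower). The mean ratio was above 0 in 20 members, below 0 in 9 and 0 in *Blk*, and its median over the 30 genes was 0.19, compared to -0.08 over all genes tested. The spread between mice was wide, with a median SD of 0.72 over the members and 0.42 over all genes.

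**Figure D1:**
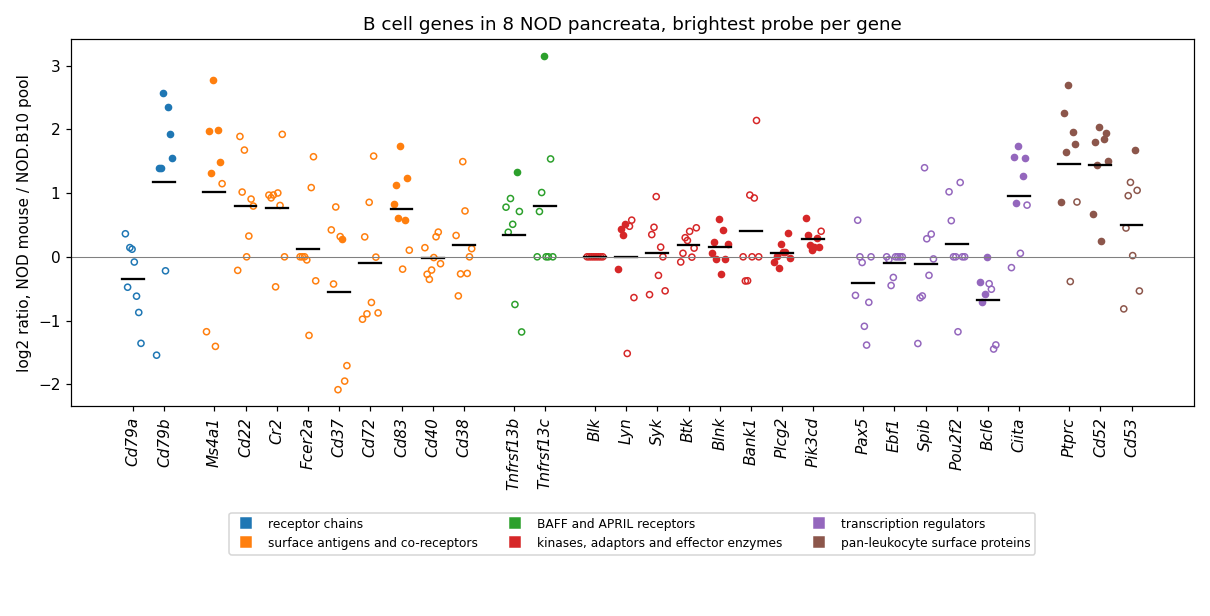
Log2 ratio of each of 8 NOD mice over the NOD.B10 pool (vertical axis) for the brightest probe of each of the 30 genes, grouped and colored by role; filled points have red signal well above background, open points do not, and bars are means. Filled points are frequent for 11 genes, and the means of *Ptprc* (1.46) and *Cd52* (1.44) are the highest.

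To show the sequence in front of the genes, the 250 bases before the RefSeq gene start (build GRCm38.p6) were taken for the 22 members that had an entry. No entry was matched for *Ms4a1*, *Cd83*, *Cd40*, *Blk*, *Ciita*, *Cd52*, *Cd79b* and *Lyn*. Letters of 3 motifs of B lineage regulators were searched on both strands: the octamer ATTTGCAT of Pou2f2 and its relatives, TCCCNNGGG of Ebf1, and GAGGAAGT of ETS factors such as Spib. The first 3 sequences below belong to members with an adjusted p below 0.05, and the last 2 to members that hold a motif, in capitals. All read 5′ to 3′ on the strand of the gene.
*Ptprc*, chr1:138175306-138175555, minus strand: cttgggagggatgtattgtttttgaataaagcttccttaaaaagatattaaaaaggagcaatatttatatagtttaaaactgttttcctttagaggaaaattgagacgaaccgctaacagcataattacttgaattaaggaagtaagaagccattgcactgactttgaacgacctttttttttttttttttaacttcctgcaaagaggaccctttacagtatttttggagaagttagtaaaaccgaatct
*Pik3cd*, chr4:149698709-149698958, minus strand: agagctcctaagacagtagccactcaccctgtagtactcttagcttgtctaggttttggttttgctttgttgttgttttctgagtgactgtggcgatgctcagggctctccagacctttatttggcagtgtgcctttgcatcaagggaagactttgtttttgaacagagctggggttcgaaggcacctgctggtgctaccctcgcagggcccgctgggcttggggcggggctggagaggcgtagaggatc
*Bcl6*, chr16:23988853-23989102, minus strand: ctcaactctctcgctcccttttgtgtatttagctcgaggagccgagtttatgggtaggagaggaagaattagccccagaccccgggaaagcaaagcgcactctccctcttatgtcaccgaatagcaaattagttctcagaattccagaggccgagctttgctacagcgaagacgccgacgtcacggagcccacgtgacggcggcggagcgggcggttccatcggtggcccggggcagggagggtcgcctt
*Cd22*, chr7:30879029-30879278, minus strand: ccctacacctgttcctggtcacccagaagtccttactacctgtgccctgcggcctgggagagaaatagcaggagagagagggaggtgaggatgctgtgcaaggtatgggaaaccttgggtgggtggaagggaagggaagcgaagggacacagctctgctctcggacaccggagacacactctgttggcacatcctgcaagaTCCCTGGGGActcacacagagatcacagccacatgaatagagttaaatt
*Blnk*, chr19:40994222-40994471, minus strand: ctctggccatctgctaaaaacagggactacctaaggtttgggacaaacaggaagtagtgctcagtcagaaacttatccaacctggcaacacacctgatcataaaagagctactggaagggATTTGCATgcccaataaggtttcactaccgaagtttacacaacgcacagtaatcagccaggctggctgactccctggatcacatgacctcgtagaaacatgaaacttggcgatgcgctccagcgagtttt
In *Cd22* the capitals hold the Ebf1 letters on both strands, overlapping, at 49 to 40 bases before the start. *Blnk* holds the octamer at 130 to 123 bases before it. Among the 22 members, the octamer was found in 1, the Ebf1 letters in 1 and the ETS letters in 2 (*Cd37* and *Cd72*), and over 27025 promoters of the same length in 1.61%, 5.53% and 2.44%. The letters were not present in the windows of *Ptprc*, *Pik3cd* and *Bcl6*.

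Neither receptor chain passed the test on the deposited ratios. *Cd79b* was above the pool in 6 of 8 mice, with a mean ratio over all 8 of 2.26-fold, and *Cd79a* in 3. The *Cd79b* probe (chromosome 11, 106127556 to 106127615) gave ratios of -1.54, 1.40, 1.39, 2.57, -0.22, 2.36, 1.92 and 1.55 in NOD mice 1 to 8. Mice 1 and 5 were below the pool, the other 6 at least 1.39 above it. Red signal of *Cd79b* was not well above background in mice 1 and 5. The mean was 1.18 (SD 1.39, n = 8, adjusted p = 0.12), and an exact two-sided sign-flip test gave p = 0.0703, where 0.00781 is the smallest value it can give. Without mouse 1 the mean was 1.57, with an adjusted p of 0.0258, and on leaving out any other mouse it was 0.98 to 1.38, with adjusted p of 0.107 to 0.237. With median-centered signals *Cd79b* was called (mean 1.21, adjusted p = 0.00871), and with normexp and loess its mean was 0.61 (adjusted p = 0.0261). The green signal of the pool stayed between 166 and 265 over the arrays, while the red signal ran from 62.9 to 1367, so the spread lay in the red channel, that of the mice. *Cd79a*, the partner chain (chromosome 7, 24608094 to 24608351), had ratios of 0.36, -0.48, 0.14, 0.12, -0.08, -0.62, -0.87 and -1.36. Its mean was -0.35 (SD 0.59, adjusted p = 0.266), and its red signal, with a median of 93.6, was well above background on no array.

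Among the surface antigens and co-receptors, *Cd83* was higher at an adjusted p below 0.05 and *Ms4a1* was higher in 6 of 8 mice without passing the test on its brightest probe. *Ms4a1* encodes Cd20, a marker of mature B cells. Its brightest probe (chromosome 19, 11317922 to 11317981) gave -1.18, 1.98, 1.32, 2.77, -1.41, 2.00, 1.49 and 1.15, with a mean of 1.01 (SD 1.51, n = 8, adjusted p = 0.206). As for *Cd79b*, mice 1 and 5 were below the pool and mouse 4 was the highest. In mice 1 and 5 its red signal was not well above background, and in mouse 5 it was a stand-in. The other *Ms4a1* probe (11318382 to 11318441) gave 0.64, 0.92, 1.14, 1.69, -0.21, 1.35, 0.77 and 0.04, with a mean of 0.79 (SD 0.64, adjusted p = 0.0390). It was dimmer, with a red signal well above background on 1 array, and it placed mouse 1 above the pool where the brightest probe placed it below.

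*Cd83*, a surface protein of activated B cells and dendritic cells (chromosome 13, 43813879 to 43813938), had ratios of 0.83, 1.13, 0.60, 1.74, -0.19, 0.58, 1.24 and 0.10. It was above the pool in 7 mice, with a mean of 0.75, or 1.69-fold (SD 0.62, n = 8, adjusted p = 0.0425). Mouse 5 was again the lowest and mouse 4 the highest. Its adjusted p rose to between 0.0725 and 0.0961 on leaving out mouse 1, 2, 3, 4, 6 or 7, and was 0.0621 with a plain one-sample statistic. With normexp and loess the *Cd83* mean was 0.24 (adjusted p = 0.0423). With median-centered signals it was 1.14 and the gene was called (adjusted p = 0.000279). The inhibitory lectin *Cd22* and the complement receptor *Cr2* had means of 0.80 and 0.77 (adjusted p = 0.0619 and 0.0631) and were each above the pool in 6 mice. Their red signals were well above background on no array, and a second *Cd22* probe was at 0 in all 8 mice, with red stand-ins throughout. The remaining members of this group did not pass: the ectoenzyme *Cd38* had a mean of 0.19, the IgE receptor *Fcer2a* 0.12, *Cd40* -0.01, the inhibitory co-receptor *Cd72* -0.09 and the tetraspanin *Cd37* -0.55, with adjusted p from 0.384 to 0.976. Red signal of *Cd37* was well above background in mouse 6 alone. Its ratios were between 0.28 and 0.78 in 4 mice and were -2.08, -1.95 and -1.71 in mice 4, 7 and 8, where red was a stand-in in mice 7 and 8 and not well above background in mouse 4. The second probes of *Cd72* and *Cd38* had means of 0.20 and -0.04, on the other side of 0 from their brightest probes.

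BAFF and APRIL keep mature B cells and plasma cells alive, and both of their receptors among the members are present mainly on B lineage cells. The BAFF receptor *Tnfrsf13c* had a mean of 0.80 (SD 1.12, n = 8, adjusted p = 0.179). It was 3.16 in mouse 4, 1.54 in mouse 7, 1.01 in mouse 3 and 0.71 in mouse 2, and exactly 0 in the other 4 mice. Its red signal was well above background in mouse 4 alone. *Tnfrsf13b* (TACI) had a lowest ratio of -1.18, a median of 0.61 and a highest of 1.33, with a mean of 0.34 (adjusted p = 0.466).

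Of the 8 signaling enzymes and adaptors, *Blnk* and *Plcg2* were the best measured and were close to the pool, while *Blk*, *Syk*, *Btk* and *Bank1* had no red signal well above background on any array. *Blnk* (chromosome 19, 40982249 to 40982308) and *Plcg2* (chromosome 8, 120521057 to 120521114) had red signal well above background on all 8 arrays, with median red signals of 1239 and 1674. *Blnk* had ratios of 0.06, 0.24, -0.04, 0.59, -0.27, 0.43, -0.04 and 0.21, with a mean of 0.15 (SD 0.28, adjusted p = 0.321). *Plcg2*, the phospholipase that Btk activates, stayed between -0.18 and 0.37 with a mean of 0.06 (SD 0.17, adjusted p = 0.529). Mouse 4 was the highest and mouse 5 the lowest for *Blnk* as well, over a range far smaller than for *Cd79b*.

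*Pik3cd*, the leukocyte form of the phosphoinositide 3-kinase catalytic subunit (chromosome 4, 148498362 to 148498619), had a small difference in the same direction in each mouse. Its ratios were 0.61, 0.34, 0.19, 0.11, 0.15, 0.29, 0.16 and 0.40, above the pool in 8 of 8 mice. The mean was 0.28, or 1.22-fold (SD 0.17, n = 8, adjusted p = 0.0160), with an exact sign-flip p of 0.00781. With normexp and loess the mean was 0.19 and the adjusted p 0.0910. Its other probe was dimmer and had a mean of 0.12 (adjusted p = 0.399), and mouse 1, highest on the brightest probe, was at -0.19 on it. The Src family kinase *Lyn* differed between its probes. On the brightest one (chromosome 4, 3717973 to 3718032) the ratios were -0.19, 0.43, 0.34, 0.51, -1.52, 0.48, 0.58 and -0.64, with a mean of -0.0024 (adjusted p = 1). On the other (3716905 to 3716964) they were -1.63, 0.02, -1.26, -1.53, -0.55, -0.21, -1.57 and -1.62, with a mean of -1.05 (SD 0.69, adjusted p = 0.0194). The second probe had red signal well above background on no array and stand-in values on 3, compared to 4 arrays and none for the brightest.

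Of the other kinases and adaptors, *Syk* had a mean of 0.06, *Btk* 0.19 and the adaptor *Bank1* 0.41 (adjusted p = 0.862, 0.0876 and 0.373), and the red signal of each was well above background on no array. *Blk*, a kinase largely restricted to B cells, was at 0 in every mouse, with red stand-ins on all 8 arrays, which is not a measurement of equal expression.

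**Figure D2:**
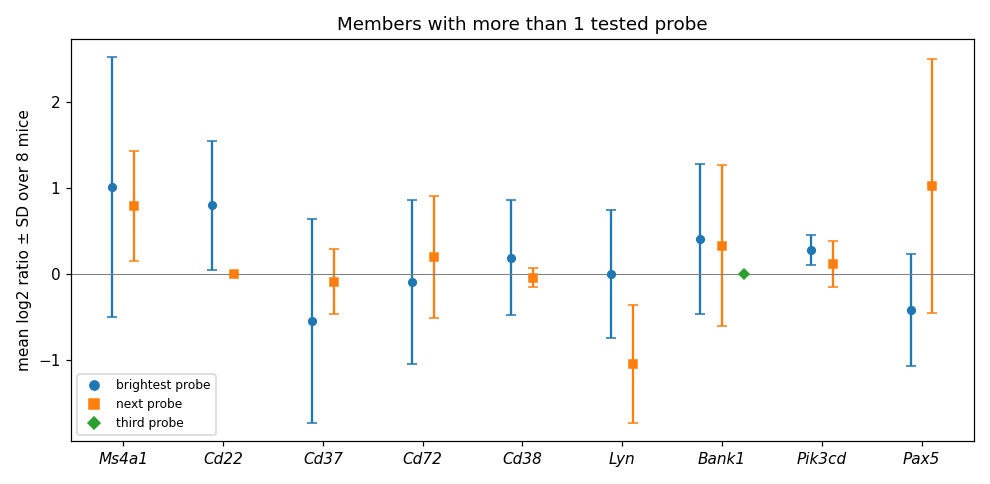
Mean log2 ratio over 8 NOD mice with the SD (bars) for each tested probe of the 9 members that had more than 1; circles are the brightest probe, squares the next and the diamond another. Probes of *Lyn* lie at -0.0024 and -1.05, those of *Pax5* at -0.41 and 1.02, and those of *Ms4a1* at 1.01 and 0.79.

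Among the transcription regulators, *Ciita* was higher and *Bcl6* lower, and the factors that define the lineage had no red signal well above background. *Ciita*, listed on the array as C2ta, drives MHC class II genes in B cells and other antigen-presenting cells (chromosome 16, 10439788 to 10439847). Its ratios were -0.17, 1.56, 0.84, 1.75, 0.06, 1.26, 1.55 and 0.81, with a mean of 0.96, or 1.94-fold (SD 0.71, n = 8, adjusted p = 0.0300). Mice 1 and 5 were the lowest and mouse 4 the highest, as for *Cd79b* and *Ms4a1*. Red signal of *Ciita* was not well above background in mice 1 and 5. On leaving out mouse 2, 3, 4, 6, 7 or 8 the adjusted p was 0.0554 to 0.0707. With normexp and loess the mean was 0.46 (adjusted p = 0.0352). With median-centered signals it was 1.24 and the gene was called (adjusted p = 0.00224). *Bcl6* encodes a transcriptional repressor that the germinal center program needs, and it is also made in many other cells (chromosome 16, 23880423 to 23880482). Its ratios were -0.39, -0.71, -0.58, -0.01, -0.42, -0.51, -1.45 and -1.38. It was below the pool in 8 of 8 mice, with a mean of -0.68, or 1.60-fold lower (SD 0.50, adjusted p = 0.0282) and an exact sign-flip p of 0.00781. Mice 7 and 8 were the lowest by a clear margin and mouse 4 was at the level of the pool. Red signal was well above background on the 4 arrays of mice 1 to 4, which shared a slide, with a mean of -0.42, and on none of the 4 arrays of mice 5 to 8 on the other slide, with a mean of -0.94. The difference between slides had an adjusted p of 0.411. Without mouse 2, 3, 6 or 8 the adjusted p was 0.0505 to 0.0625. With median-centered signals the mean was -1.49 and the gene was called (adjusted p = 0.00197), and with normexp and loess it was -0.32 (adjusted p = 0.0379).

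*Pax5*, which commits cells to the B lineage, had a mean of -0.41 on its brightest probe and 1.02 on the other (adjusted p = 0.23 and 0.192). On the latter the value was 0 in 5 mice and 2.81, 3.47 and 1.91 in mice 5, 6 and 8, and green was a stand-in on all 8 arrays. The early lineage factor *Ebf1* had a mean of -0.10, the ETS factor *Spib* -0.11 and the octamer-binding *Pou2f2* 0.20, with adjusted p from 0.3 to 0.826. The red signal of all these factors was well above background on no array, while the green signal of *Spib* was so on all 8.

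The pan-leukocyte surface proteins *Ptprc* and *Cd52* had the highest means of the 30 genes. *Cd52*, a small glycoprotein of lymphocytes and some myeloid cells (chromosome 4, 133365666 to 133365725), had ratios of 0.67, 1.80, 1.45, 2.04, 0.25, 1.85, 1.94 and 1.51. All 8 mice were above the pool, with mice 5 and 1 the lowest and mouse 4 the highest. The mean was 1.44, or 2.71-fold (SD 0.65, n = 8, adjusted p = 0.00485), the exact sign-flip p was 0.00781, and red signal was well above background on all 8 arrays. Its call was lost on leaving out mouse 2, 3, 4, 6, 7 or 8, with means of 1.35 to 1.44 and adjusted p of 0.0130 to 0.0159, and with normexp background correction and loess normalization, where the mean was 0.78 and the adjusted p 0.0205.

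*Ptprc* encodes Cd45, whose B cell form is B220 (chromosome 1, 139879923 to 139879982). Its ratios were 0.85, 2.26, 1.64, 2.70, -0.39, 1.96, 1.77 and 0.86, with a mean of 1.46, or 2.75-fold (SD 0.98, n = 8, adjusted p = 0.0210). Mouse 5 was the only one below the pool. Without it the mean was 1.72 and the gene was called (adjusted p = 0.00772), whereas without mouse 2 or 3 the adjusted p was 0.0523 or 0.0518. With normexp and loess the mean was 0.53 (adjusted p = 0.0378), and with median-centered signals it was 1.25 and the gene was called (adjusted p = 0.00323). The remaining 3 *Ptprc* probes were not tested, since they reached the red minimum on too few arrays, and none of these was well above background in red on any array. The tetraspanin *Cd53* had a mean of 0.50 (SD 0.88, adjusted p = 0.287) and was above the pool in 6 mice.

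**Figure D3:**
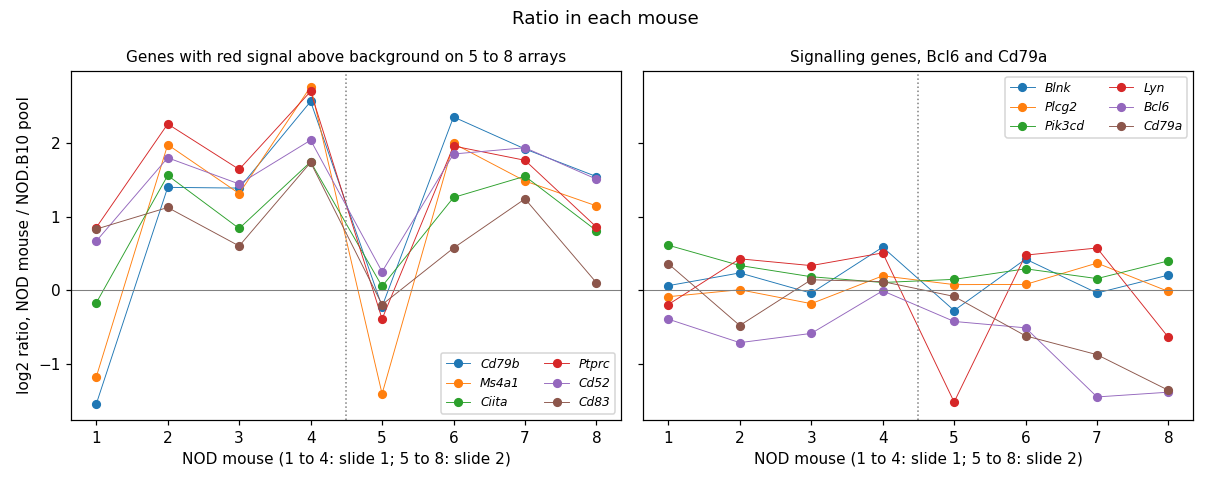
Log2 ratio over the NOD.B10 pool (vertical axis) in each NOD mouse (horizontal axis; dotted line between slides), with 1 color per gene; the thin lines only link the points of a gene, since the mice have no order. In the left panel *Cd79b*, *Ms4a1*, *Ciita*, *Ptprc*, *Cd52* and *Cd83* are highest in mouse 4; in the right panel *Blnk*, *Plcg2* and *Pik3cd* stay between -0.27 and 0.61.

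The order of the mice was partly shared among the 11 members with measurable red signal. These were kept through the NOD channel, so their ratios are not evidence of a difference from the pool. Mouse 4 was the highest for 8 of them, mouse 5 was the lowest for 6 and among the lowest 2 for 9, and mouse 1 was among the lowest 2 for 6. Mouse 5 was below the pool for 7 of the 11 genes and mouse 1 for 6, whereas mice 2, 4 and 6 were each below it for 1. The summed red signal of all 30 genes ran from 4917 in mouse 5 to 13870 in mouse 4, and the summed green signal of the pool from 5324 to 8068. All arrays share the pool. The share of spots with red signal well above background was 30.1% in mouse 1, 33.2% in mouse 4 and 27.2% in mouse 5, with the lowest value in mouse 8 (21.6%). The median coefficient of variation of background-subtracted red signal among repeat spots, as given by the scanner software, was 56.0% to 63.5% on the arrays of mice 5, 6 and 7, whose grid fit lacked the good rating, 38.2% on that of mouse 8 and 16.1% to 24.8% on those of mice 1 to 4. Some other marker lists followed this order in summed red signal and others did not. The lymph node stroma list, which includes *Ltb* and *Lta*, was also lowest in mouse 5 (1994) and highest in mouse 4 (7941). The acinar list was lowest in mouse 4 (1608084) and highest in mouse 5 (2899252). The myeloid list was lowest in mouse 5 (14767) but highest in mouse 2 (38659). The T cell list was lowest in mouse 8 and highest in mouse 6. The plasma cell list was lowest in mouse 8 and highest in mouse 2, and the islet list lowest in mouse 1 and highest in mouse 7. The part of array quality and of the cells behind these lists in the order was not tested. Mice 1 to 4 were on one slide and mice 5 to 8 on another. The difference between slides passed an adjusted p of 0.05 for 0 of the 30 genes in limma (smallest adjusted p = 0.234, and 1 of 30 at an unadjusted p below 0.05). The share over all genes is not given. With few arrays per slide and weak red signal for 19 of the 30 genes, this count does not show that the slides were alike.

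**Figure D4:**
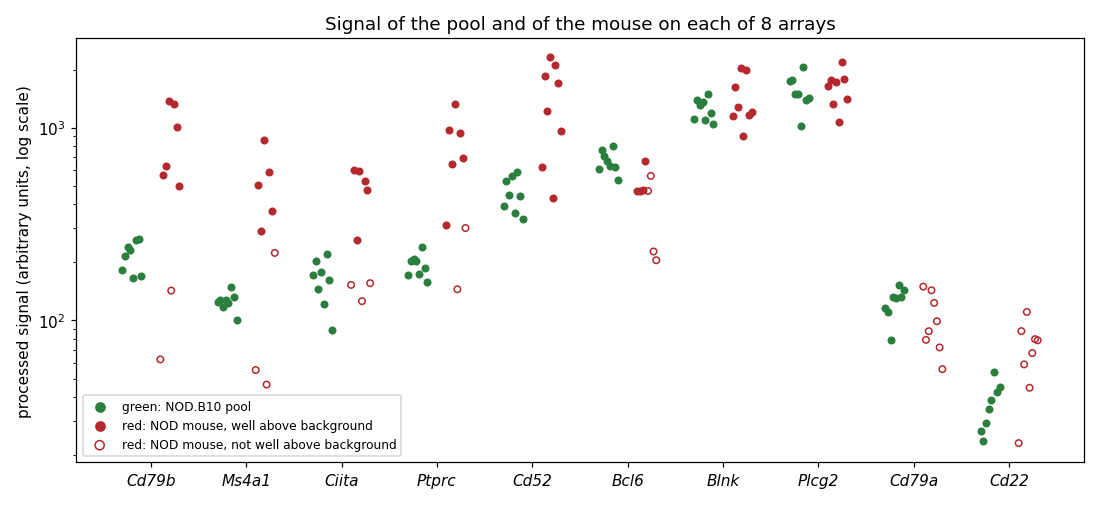
Processed signal (log axis, arbitrary units) on each of 8 arrays for 10 members; green points are the NOD.B10 pool, red points the NOD mouse, filled where well above background and open where not. The pool's points are close together for *Cd79b* (166 to 265), while those of the mice run from 62.9 to 1367.

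For 3 members the array carries the same probe 10 times, which gives the error of a spot within an array; the spread between arrays also holds labeling, hybridization and slide. The spots of *Ptprc* had a median SD within an array of 0.24, compared to an SD of 0.98 between the 8 arrays, but the spot SD was 0.72, 0.72 and 0.55 on the arrays of mice 5, 7 and 8. In mouse 4 its 10 spots lay between 2.49 and 2.96 and in mouse 5, with 2 of 10 spots well above background, between -1.46 and 0.43. *Cd40*, the receptor for T cell help, had a median spot SD of 0.62 and an SD between arrays of 0.27, and *Btk* 0.50 and 0.19. For these genes 0 of 80 spots had red signal well above background, compared to 61 of 80 for *Ptprc*. A single spot of *Cd40* or *Btk* reached 2.84 or 2.89 on an array whose mean was 0.39 or 0.30. Single-spot ratios of this size thus occurred for genes without measurable red signal, as also for the other *Bank1* probe, which was 2.66 in mouse 1 and 0 in the other 7.

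**Figure D5:**
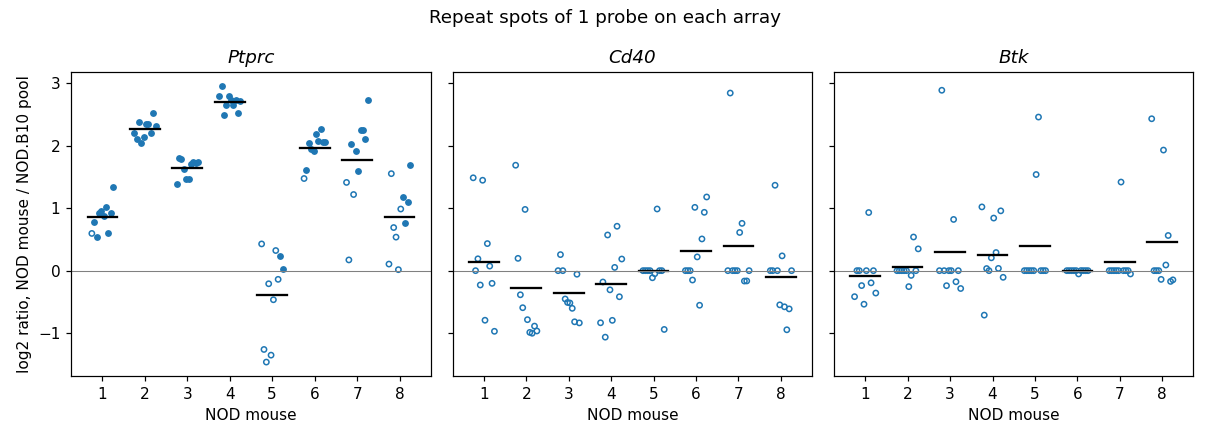
Log2 ratio of each of 10 spots of 1 probe on each array, for *Ptprc*, *Cd40* and *Btk*; filled spots have red signal well above background and bars are array means. The spots of *Ptprc* are tight in mouse 4 (2.49 to 2.96) and low in mouse 5 (-1.46 to 0.43), and those of *Cd40* and *Btk* are all open.

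Other genes of the pathway, listed separately, were called in neither direction (0 of 33 tested, from 39 listed). With an adjusted p below 0.05, 3 were higher (9.09%; all genes, 6.97%) and 2 lower (6.06%; all genes, 14.3%). The higher ones were *Il21r*, the receptor for the helper cytokine IL-21 (mean 0.65, adjusted p = 0.00110), *Cd24a* (0.60, adjusted p = 0.00522) and the inhibitory Fc receptor *Fcgr2b* (0.55, adjusted p = 0.0405). The other *Fcgr2b* probes went the other way, with means of -0.14 and -0.36 (adjusted p = 0.758 and 0.395), and red signal was well above background on 4 arrays for the former, compared to 2 for the brightest probe. *Nfatc1* had a mean of -0.39 (adjusted p = 0.000478) and *Sfpi1*, the gene of PU.1, a mean of -0.58 (adjusted p = 0.00856), with red signal well above background on no array for the latter.

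Markers of other cells moved as well, and their part in the ratios of shared genes such as *Ptprc* and *Cd52* was not tested. Of 14 T cell markers, 4 were higher at an adjusted p below 0.05: *Lck* with a mean of 2.30, *Cd3d* 2.07, *Cd5* 1.32 and *Cd3e* 0.61 (adjusted p = 0.0128, 0.0101, 0.0133 and 0.00762). In mouse 1, where *Cd79b* and the brightest *Ms4a1* probe were below the pool, *Cd3d* was 2.44 and *Lck* 1.47 above it. In the same mouse *Cd3e* was 0.26 and the median over the 14 T cell markers 0.22, while the other *Ms4a1* probe was 0.64. Red signal of *Cd3d* was well above background on 3 arrays. The summed red signal of the T cell list, most of it from *Cd3e*, ran from 6058 to 19271 over the mice and the green from 4594 to 10878, and *Cd247*, *Cd2*, *Lat* and *Cd28* had red signal well above background on no array. Of 11 myeloid markers tested, *Itgax* (1.56) and *Fcer1g* (0.34) were higher, although another *Itgax* probe had a mean of -0.78 (adjusted p = 0.0200) and another *Fcer1g* probe -0.04 (adjusted p = 0.986). This list had summed red signal of 14767 to 38659 and green of 18080 to 28474. *Itgam* had red signal well above background on no array.

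Of 5 plasma cell markers tested, the joining chain gene *Igj* (1.57) and *Mzb1* (0.44) were higher (adjusted p = 0.0278 and 0.00104). *Igj* had ratios of 0.68, 2.30, 1.62, 2.40, -0.67, 2.80, 2.20 and 1.18, lowest in mice 5 and 1, as *Cd52* was. The summed red signal of this list was 27677 to 66011 and the green 32371 to 50781. Of 9 markers of lymph node stroma and lymphoid aggregates, *Ltb* was called (1.44, adjusted p = 0.00271) and *Ccl19* was higher (1.32, adjusted p = 0.0109). *Lta* was lower (-0.26, adjusted p = 0.0235), with red signal well above background on no array. This list had summed red signal of 1994 to 7941 and green of 1651 to 2584. *Ltb* and *Lta* are genes of lymphotoxins, which lymphocytes themselves make, so they are not markers of stroma. Both lie on chromosome 17 within H2, where the strains differ. Whether a lymph node was included in some of the tissue was not tested. Of 6 acinar markers, *Pnlip* (0.45) and *Ctrb1* (0.54) were higher, and of 8 islet markers *Pdx1* (-0.70) and *Chga* (-0.64) were lower, at adjusted p of 0.0230 to 0.0439. The summed red signal was 1608084 to 2899252 for the acinar list and 52750 to 310568 for the islet list, lowest for the latter in mouse 1 and highest in mouse 7. The green sums over the arrays were 1599638 to 1900477 and 190798 to 242068.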

How the data were processed

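Total pancreas RNA of 8 NOD mice was hybridized to 8 two-color arrays against 1 pool of 8 NOD.B10 pancreata. Per the file headers, spots were read with Agilent Feature Extraction 10.7.3.1. The deposited log10 ratios of red over green had been background-subtracted, dye-normalized (linear and lowess) and set to 0 where stand-in values allowed no ratio. The deposited processed intensities and flags came from the same step. The log10 ratios were multiplied by 3.3219 to give log2 ratios, and repeat spots of a probe were averaged.

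Of 41174 probes, 34850 had a gene symbol and 28105 of these reached a processed red intensity of 25 on 4 or more arrays. This filter includes stand-in values, and 6 of the 46 member probes failed it, while each of the 30 genes kept a tested probe. Mean ratios were tested against 0 with limma 3.58.1 (R 4.3.3; one-sample moderated statistic) with Benjamini-Hochberg adjustment over the 28105 probes, and with an exact sign-flip test over 256 flips for single genes. A call needed a 2-fold difference and an adjusted p below 0.01. On simulated data with 200 probes changed 3-fold the limma step recovered 142 and made 0 false calls. Members are described in full when called, past an adjusted p of 0.05, or when their probes went in opposite directions with 1 of them at an unadjusted p below 0.05. Other members given mouse by mouse (*Cd79a*, *Cd79b*, *Ms4a1*, *Blnk*, *Lyn*, *Pax5*, *Tnfrsf13c* and *Cd37*) were chosen after their values were seen. Members, lists and roles were chosen with earlier results of these data known. The array symbol Tcf3 names another gene today, so Tcfe2a was used for it. One gene of the lists beyond the members is not reported here. The mice are separate animals, each measured on 1 array against a single pool. P-values therefore cover the spread between the NOD arrays, which holds labeling, hybridization, spot and slide error besides differences between mice. They do not cover the spread between NOD.B10 mice. Array signals carry no counts, and the 8 arrays limit the precision. Alternatives were other background and normalization choices, filters, thresholds, slide as a covariate, array weights and leaving out each mouse.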

Additional observations from a re-analysis of the deposited data

Results flagged for a closer look

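Of 57 probes checked for a mouse far from the others, 3 had a value whose gap to its nearest neighbor exceeded Dixon's critical ratio for 8 samples; chance alone gives about 1 in 20 groups. The dim second *Cd38* probe was -0.32 in mouse 4 and 0 in the other 7 mice, and its red values were stand-ins throughout. The second *Bank1* probe was 2.66 in mouse 1 and 0 in the other 7, with red stand-in values on 7 arrays. The T cell gene *Cd3d* was -0.58 in mouse 8 and at least 1.65 in the other mice; mouse 8 had the lowest share of spots with red signal well above background (21.6%). The part of the weak red signal in these values was not tested.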

How the results depend on the processing

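Across all probes tested, 87 were called higher and 397 lower. Leaving out each mouse gave 49 to 76 higher and 189 to 270 lower probes, and 0 to 2 members called. A plain one-sample statistic gave 243 lower. Testing only probes whose red signal stood well above background on 4 or more arrays gave 42 lower, 2 members called and, over the 11 members left, a median ratio of 0.75. That filter keeps members through the NOD channel, so the median is no support for a difference. The ratio of processed signals, stand-in values included, gave 3470 higher, 690 lower and 2 members called. Median-centered signals gave 5780 higher, 1307 lower, 14 members higher, 1 member lower and a member median of 1.05, and moved the median of all probes tested by 0.16. Normexp with loess gave 48 higher, 19 lower and 0 members called. An adjusted p below 0.05 with 2-fold gave 158 higher, 761 lower and 2 members, and 1.5-fold with an adjusted p below 0.01 gave 301 higher and 808 lower. The causes were not tested beyond these settings' own construction. *Cd79a* turned to 0.036 with normexp and loess. The brightest *Lyn* probe, with a mean of -0.0024, turned to 0.077 with array weights, ran from -0.085 to 0.21 on leaving out each mouse and was -0.64 (adjusted p = 0.0819) with median-centered signals. *Cd79b*, *Ms4a1*, *Cd83*, *Pik3cd*, *Bcl6*, *Ciita*, *Ptprc* and *Cd52* kept their direction in each of 15 alternatives run for single genes. No paired analysis was possible because there is 1 group and its numbers only name mice. The weak red signal limits 19 of the 30 genes, which had red signal well above background on fewer than 4 arrays.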
